A study of Homo sapiens with 8 samples.

Results

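ETS factors are transcription factors that share an ETS domain, a winged helix-turn-helix fold that binds DNA around a GGAA core. The 10 genes described here (ETV3, ERF, ETV6, ETV4, ETV5, ELK1, ELK3, ETS1, ETS2 and ELF1) were taken by symbol from a table of 18555 genes, and all 10 had a row and passed the filter on low counts. The family was chosen because ETV3 is lower after XBP1 knockdown in these same libraries, so the members' values in that comparison are given as a description, with no test drawn from them.

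Knockdown by an XBP1-specific siRNA (siXBP1, 3 libraries) was set against transfection with Allstar control siRNA (siNC, 3 libraries). All 6 RNA-seq libraries came from cells labelled HepG2, a human hepatocellular carcinoma line, and both groups then received 30 nM thapsigargin for 3 hours. This drug empties calcium stores of the endoplasmic reticulum (ER) by inhibiting the SERCA pump, and it triggers the unfolded protein response, in which IRE1 splices XBP1 mRNA into the form that encodes the active factor XBP1s. With no arm free of thapsigargin among these libraries, the comparison concerns reduced XBP1 under stress. The series also has 2 ChIP-seq samples for XBP1s, which were not analysed here.

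Many ETS factors are end points of the RAS-ERK kinase cascade. ERK phosphorylates ELK1, ETS1, ETS2 and the PEA3 proteins ETV4 and ETV5 and raises their activity, and it drives the repressor ERF out of the nucleus. Much of this control acts on the protein, which read counts do not show. Members fall into repressors (ETV3, ERF, ETV6), PEA3 activators (ETV4, ETV5), ternary complex factors that bind with SRF (ELK1, ELK3), the paired factors ETS1 and ETS2, and ELF1 of a separate branch.

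The start regions of the 3 members whose groups did not overlap, ETV3, ETV6 and ETS2, are shown. Groups did not overlap for 8.75% of all genes tested, and those of ETV6 were only narrowly apart. These windows were thus picked from the comparison that chose the family. Each covers 250 bases before and 50 bases after a start site in RefSeq's GRCh38.p14 annotation, 5′ to 3′ on the gene's strand. They lie at chr1:157138346-157138645 (minus strand) for ETV3, chr12:11649424-11649723 (plus strand) for ETV6 and chr21:38804933-38805232 (plus strand, the first of 2 ETS2 windows) for ETS2. Capitals mark, on either strand, TGACGTG (the core of the unfolded protein response element bound by XBP1s), CCACG (a part of the ER stress response element) and GGAAGT (an ETS core with its flank).
ETV3: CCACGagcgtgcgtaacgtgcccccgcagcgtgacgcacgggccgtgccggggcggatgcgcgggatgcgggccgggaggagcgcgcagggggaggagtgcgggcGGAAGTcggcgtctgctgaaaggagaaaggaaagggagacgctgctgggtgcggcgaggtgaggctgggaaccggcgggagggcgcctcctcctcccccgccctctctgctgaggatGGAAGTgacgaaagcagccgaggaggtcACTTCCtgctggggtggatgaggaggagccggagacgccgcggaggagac
ETV6: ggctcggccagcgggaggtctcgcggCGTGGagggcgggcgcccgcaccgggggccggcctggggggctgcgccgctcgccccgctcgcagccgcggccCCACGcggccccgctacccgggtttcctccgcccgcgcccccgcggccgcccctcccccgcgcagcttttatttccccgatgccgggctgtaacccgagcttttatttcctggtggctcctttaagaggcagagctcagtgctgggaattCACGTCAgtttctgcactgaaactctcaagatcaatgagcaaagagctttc
ETS2: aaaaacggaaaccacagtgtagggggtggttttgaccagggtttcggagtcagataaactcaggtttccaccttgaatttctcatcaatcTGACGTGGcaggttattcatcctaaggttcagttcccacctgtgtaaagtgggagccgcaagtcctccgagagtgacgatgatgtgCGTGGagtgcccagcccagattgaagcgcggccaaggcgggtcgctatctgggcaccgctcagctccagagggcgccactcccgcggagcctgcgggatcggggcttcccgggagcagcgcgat

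The ETV3 window held no TGACGTG. It held GGAAGT 3 times, starting at -145 and -28 on the gene's strand and at 1 on the opposite strand, counted from the start site, and CCACG once at its upstream end. ETV6 held TGACGTG once on the opposite strand, across the start site, and ETS2 held it once at -160, where it overlaps a CCACG on the opposite strand. Windows were found for 7 of the 10 members (13 windows). TGACGTG was in 3 of these 13 windows (1 each of ETV6, ETS2 and ELF1), against 1.97% of all 35116 windows. GGAAGT was in 3 (ETV3, ELK3 and the second ETS2 window, which is not shown), against 22.8%, and CCACG was in 9, against 38.1%. These are matches of letters only, some windows belong to the same gene, and enrichment was not tested. No window was found for ETV4, ETV5 and ETS1.

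Depth was even, with totals of 38209972 to 38890070 counts per library, so that 3 counts, taken as the floor, came to 0.0771 to 0.0785 CPM (counts scaled to a common library total). XBP1 had 290.0, 299 and 276 CPM in siXBP1 libraries and 552, 502 and 499.6 CPM in siNC libraries. It was lower in siXBP1 by edgeR's quasi-likelihood test (log2 fold change -0.84, SE 0.08, adjusted p = 0.0331). Libraries also differed along a first principal component with 59.1% of the variance, whose ends were siXBP1 replicate 3 (score -0.648) and siNC replicate 1 (0.643). Of 12 hepatocyte markers, 5 had a row in the table, and AFP, SERPINA1 and HNF4A reached no more than 0.155, 0.416 and 0.523 CPM in any library. The summed level of the markers was 1.91 to 3.51 CPM in siXBP1 and 1.82 to 2.57 CPM in siNC libraries. KRT17 and KRT7, keratins of other epithelial lines, averaged 3373 and 1449 CPM in siXBP1 and 3356 and 1496 CPM in siNC libraries. Of the other 2 keratins in that list, KRT14 averaged 8.74 CPM in siXBP1 and 8.82 CPM in siNC, and KRT5 reached no more than 0.103 CPM in any library. The low hepatocyte markers go against the label, and the cells are called cells labelled HepG2.

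ETV3 (gene ID 2117, chromosome 1, 157121191 to 157138395, GRCh38) encodes a repressor that acts with the helicase DDX20 in mouse macrophages, where it was described as a brake on proliferation. It had 864, 703 and 813 counts in siXBP1 libraries and 1044, 1357 and 1331 counts in siNC libraries. In CPM these are 22.5, 18.1 and 21.3 in siXBP1 and 26.8, 34.9 and 34.6 in siNC. Every siXBP1 library lay below every siNC library, and the lowest siNC value was that of replicate 1, an end library of the first component. The means were 20.6 ± 2.24 CPM in siXBP1 and 32.1 ± 4.56 CPM in siNC (SD, n = 3 each), so that siXBP1 held 64.2% of the siNC mean. The log2 fold change was -0.64 (SE 0.14). In bulk RNA, fewer cells of a kind and less transcript per cell cannot be told apart. Within each library, ETV3 took 2.69%, 2.29% and 2.68% of the reads of the 10 members in siXBP1 and 3.52%, 4.49% and 4.41% in siNC. This share does not depend on how libraries are scaled, and its groups do not overlap. It uses the same ETV3 counts again, and it falls when other members rise. The share of ELK1 was apart too, at 11.9% to 12.2% in siXBP1 and 12.8% to 13.1% in siNC, though the CPM of ELK1 overlap. The only RefSeq gene overlapping ETV3 that has a row, the pseudogene CYCSP52, had at most 6 counts in any library.

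ERF (gene ID 2077, chromosome 19) is the repressor of the ETV3 branch that ERK phosphorylation exports from the nucleus. It had 78.0, 58.5 and 53.3 CPM in siXBP1 libraries and 78.9, 67.5 and 75.1 CPM in siNC libraries. Replicates 2 and 3 of siXBP1 lay below all siNC libraries, but replicate 1 lay close to the highest siNC value, so the groups overlap. The log2 fold change was -0.22 (SE 0.14). Over the alternatives described below it ranged from -0.40, without siXBP1 replicate 1, to -0.06, without both end libraries of the first component. The ratio of ETV3 to ERF counts was 0.288, 0.310 and 0.399 in siXBP1 libraries and 0.340, 0.517 and 0.460 in siNC libraries, with overlap.

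ETV6 (gene ID 2120, chromosome 12), also called TEL, is a repressor with a pointed domain that lets it polymerise. It had 25.6, 25.2 and 26.2 CPM in siXBP1 libraries and 24.4, 23.3 and 21.3 CPM in siNC libraries. All siXBP1 values lay above all siNC values, by a margin of under 1 CPM between the closest pair. The log2 fold change was 0.16 (SE 0.11). As a share of the 10 members' reads the groups overlapped, at 3.07% to 3.29% in siXBP1 and 2.72% to 3.20% in siNC. The repressors thus did not share a direction, with negative estimates for ETV3 and ERF and a positive one for ETV6.

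**Figure D1:**
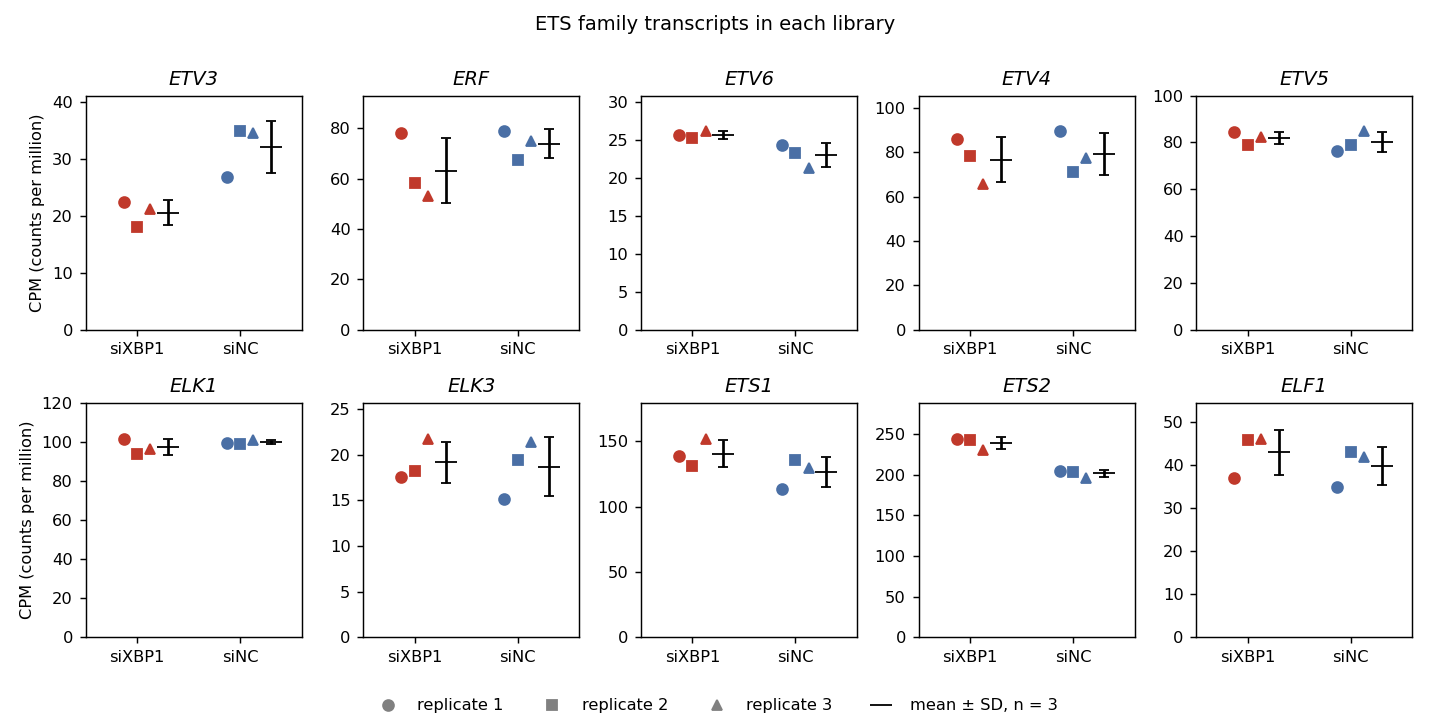
CPM (vertical axes, from 0) of the 10 ETS members in each siXBP1 (red) and siNC (blue) library, with marker shape for the replicate and a black bar for mean ± SD (n = 3). ETV3 is below all siNC libraries and ETV6 and ETS2 are above them in every siXBP1 library, while the groups overlap for the other 7 members.

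ETV4 (gene ID 2118, chromosome 17) and ETV5 (gene ID 2119, chromosome 3) are PEA3 activators whose transcripts are widely used as readouts of ERK signalling. ETV4 had 85.9, 78.4 and 65.9 CPM in siXBP1 libraries and 89.6, 71.1 and 77.4 CPM in siNC libraries. Its spread within each group was larger than the difference between group means (76.7 ± 10.1 CPM in siXBP1 and 79.3 ± 9.40 CPM in siNC, SD, n = 3 each). ETV5 had 84.4, 79.1 and 82.3 CPM in siXBP1 libraries and 76.4, 79.0 and 84.8 CPM in siNC libraries. It was the steadier of the pair, with a coefficient of variation over the 6 libraries of 4.15%, against 11.3% for ETV4. Log2 fold changes were -0.05 (SE 0.13) for ETV4 and 0.03 (SE 0.09) for ETV5. ETV4 shares its locus with DHX8, which had 2837 to 3267 counts per library. Since the strand setting of the counting is not given in the sources used here, how reads of the 2 genes were divided is uncertain.

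ELK1 (gene ID 2002, chromosome X) and ELK3 (gene ID 2004, chromosome 12) are ternary complex factors that bind serum response elements with SRF, and ELK3 represses until it is phosphorylated. ELK1 had 101.7, 93.7 and 96.7 CPM in siXBP1 libraries and 99.6, 99.1 and 101.1 CPM in siNC libraries. It was the least variable member, with a coefficient of variation of 3.02%. ELK3 had 17.6, 18.2 and 21.7 CPM in siXBP1 libraries and 15.2, 19.5 and 21.4 CPM in siNC libraries. Both groups spanned a similar range for ELK3. Log2 fold changes were -0.04 (SE 0.09) for ELK1 and 0.04 (SE 0.16) for ELK3. The ratio of ELK3 to ELK1 counts was 0.197 ± 0.0262 in siXBP1 and 0.187 ± 0.0309 in siNC (SD, n = 3 each), a difference within the spread.

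ETS2 (gene ID 2114, chromosome 21, 38805183 to 38824955) and ETS1 (gene ID 2113, chromosome 11) carry a pointed domain next to an ERK phosphorylation site. ETS2 had 9385, 9417 and 8788 counts in siXBP1 libraries and 7935, 7919 and 7561 counts in siNC libraries. In CPM these are 244, 243 and 230.0 in siXBP1 and 204, 204 and 196 in siNC, with no overlap and a narrow spread within groups (239 ± 7.74 CPM in siXBP1 and 201 ± 4.37 CPM in siNC, SD, n = 3 each). The log2 fold change was 0.25 (SE 0.08), the largest positive estimate among the 10 members. Its share of the members' reads was 29.2%, 30.7% and 28.9% in siXBP1 and 26.7%, 26.2% and 25.1% in siNC, again apart. ETS1 had 139, 131 and 152 CPM in siXBP1 libraries and 113, 136 and 129.7 CPM in siNC libraries, and the groups overlap. Its log2 fold change was 0.16 (SE 0.10) and came to 0.03 without both end libraries and to 0.21 without siNC replicate 2.

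ELF1 (gene ID 1997, chromosome 13), best known from lymphoid and endothelial genes, had 36.9, 45.9 and 46.0 CPM in siXBP1 libraries and 34.8, 42.9 and 41.8 CPM in siNC libraries. Replicate 1 was the lowest in both groups, and the groups overlap. The log2 fold change was 0.11 (SE 0.14), and it was -0.03 without both end libraries and 0.21 without siXBP1 replicate 1.

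By edgeR, 0 of the 10 members passed an adjusted p of 0.05 over all genes, and 0.00697% of the 14337 genes tested did (XBP1 alone). At an unadjusted p under 0.05 stood 2 members, ETV3 and ETS2, where 3.61% of all genes did. DESeq2 called 1 member (ETV3), against 0.105% of genes, and limma-voom called 0, against 0.00697%. Groups did not overlap for 3 of the 10 members, 1 with siXBP1 lower and 2 with siXBP1 higher, and for 8.75% of all genes tested (3.74% lower and 5.01% higher). Because the family was picked from this comparison, nothing is read from these counts. Estimates were above 0 for 6 members and below 0 for 4, with a median log2 fold change of 0.04, beside 0.01 over all genes tested. The summed level of the 10 members was 836, 791 and 795 CPM in siXBP1 and 763, 777 and 783 CPM in siNC, and ETS2 made up between 25.1% and 30.7% of those reads.

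The members differed in how they varied over the 6 libraries. ETS2, ETV3 and ETV6 had 93.4%, 80.7% and 64.7% of their variance in log2 CPM between the groups, and each had under 1% along the first principal component. ETV4 had 95.1% along that component and 2.79% between groups. ELK3 followed with 82.0%, ETS1 with 73.2%, ELF1 with 63.4% and ERF with 50.7%. The median over all genes tested was 45.9% along the component and 9.84% between groups. In siXBP1 replicate 3 relative to siNC replicate 1, the part along the component came to -0.46 for ETV4 and -0.48 for ERF on the log2 scale, but to 0.51 for ELK3, 0.38 for ELF1 and 0.34 for ETS1. The component and the groups are not independent, so both shares of a gene can add up to over 100%, as for ETS1. What the component stands for was not tested.

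**Figure D2:**
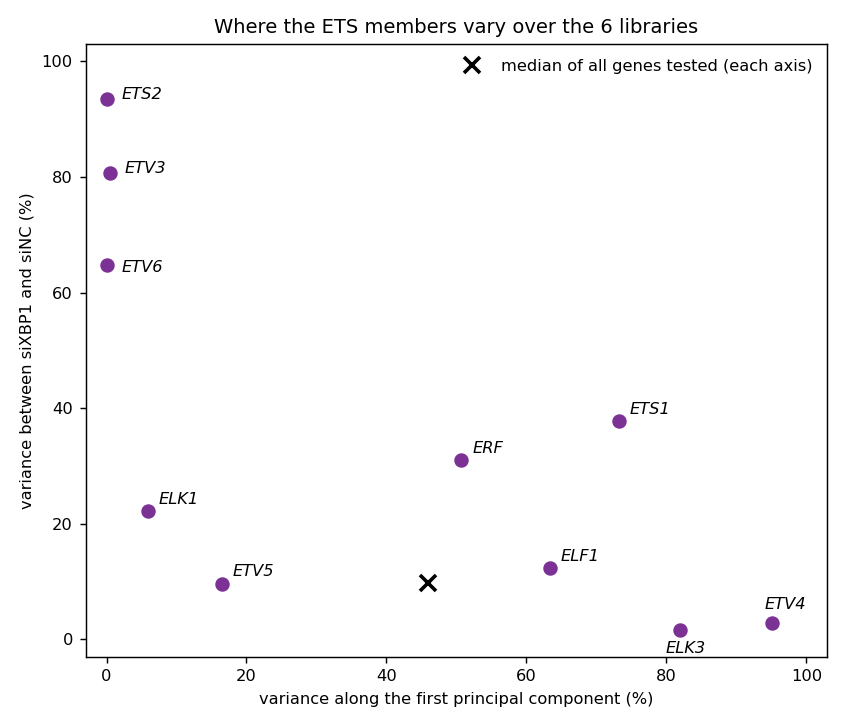
Share of each ETS member's variance over the 6 libraries that lies along the first principal component (horizontal axis, %) and between siXBP1 and siNC (vertical axis, %). ETS2, ETV3 and ETV6 sit at the upper left, with 64.7% or more between groups, and ETV4 and ELK3 at the lower right, with 82.0% or more along the component; the cross is the median of all genes tested.

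With the score on this component as a covariate, 2 members passed edgeR's test, ETV3 as lower (log2 fold change -0.67, SE 0.10) and ETS2 as higher (0.26, SE 0.06), where 1.20% of all genes tested passed. By direction, 0.488% of genes passed as lower and 0.711% as higher. Since these libraries themselves define the component, SEs of that fit may be too small. The same members passed when both end libraries were left out (ETV3 -0.77, ETS2 0.29), where 4.87% of genes passed with 2 libraries left in each group. These fits use the comparison from which the family was chosen, so they are no test of the members, and nothing is read from these counts either. In all 17 alternatives ETV3, ERF and ELK1 stayed below 0 and ETS2, ETV6 and ETS1 above 0. The estimate changed sign in 4 of 17 alternatives for ETV4 and for ELK3, and in 1 for ETV5 and for ELF1. None of these sign changes came from another scaling. For ETV3, the lowest and highest estimates with 1 library left out were -0.76 (without siNC replicate 1) and -0.56 (without siXBP1 replicate 2).

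**Figure D3:**
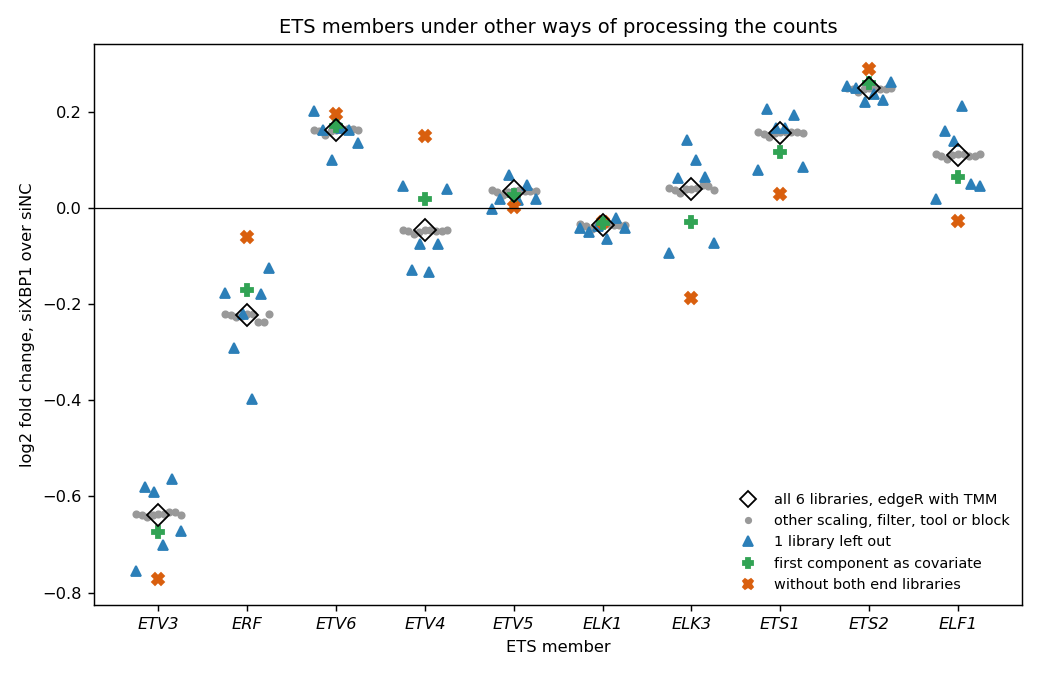
Log2 fold change, siXBP1 over siNC (vertical axis), of each ETS member with all libraries (diamond) and under 17 alternatives: other scaling, filter, tool or block (grey), 1 library left out (blue), the first component as covariate (green) and both end libraries left out (orange). ETV3 stays between -0.77 and -0.56 and ETS2 between 0.22 and 0.29, while ETV4 and ELK3 lie on both sides of 0.

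The rest of the family gave 18 further ETS genes, of which 16 had a row and 9 could be tested. By edgeR, 0 of the 9 passed, with 0 at an unadjusted p under 0.05, and DESeq2 and limma-voom also called 0. Their median log2 fold change was 0.04, with 7 estimates above and 2 below 0. ELF4, of the same branch as ELF1, had 76.0 ± 2.39 CPM in siXBP1 and 73.9 ± 2.74 CPM in siNC, and ELF2 had 44.4 ± 4.67 CPM in siXBP1 and 43.8 ± 3.89 CPM in siNC (SD, n = 3 each). Of the factors typical of epithelia, ELF3 had 55.7 ± 5.81 CPM in siXBP1 and 58.1 ± 6.59 CPM in siNC, and EHF had 37.6 ± 5.81 CPM in siXBP1 and 33.6 ± 3.85 CPM in siNC (SD, n = 3 each). For these 4 genes the groups overlap. GABPA, the DNA-binding subunit of GABP, had 29.8 ± 8.31 CPM in siXBP1 and 26.1 ± 5.88 CPM in siNC. The ternary complex factor ELK4 had 25.5 ± 5.99 CPM in siXBP1 and 24.9 ± 4.65 CPM in siNC, and the PEA3 member ETV1 had 20.9 ± 2.72 CPM in siXBP1 and 20.1 ± 2.96 CPM in siNC (SD, n = 3 each). Like ETV4, these last 3 varied mostly along the first component, with 94.6%, 93.9% and 94.0% of their variance. ERG, an endothelial factor, had 1.57 ± 0.503 CPM in siXBP1 and 1.11 ± 0.174 CPM in siNC, few reads for its log2 fold change of 0.50 (SE 0.34). The blood cell factors SPI1 and FLI1 reached no more than 0.208 and 0.156 CPM, and ETV3L no more than 0.104 CPM.

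**Figure D4:**
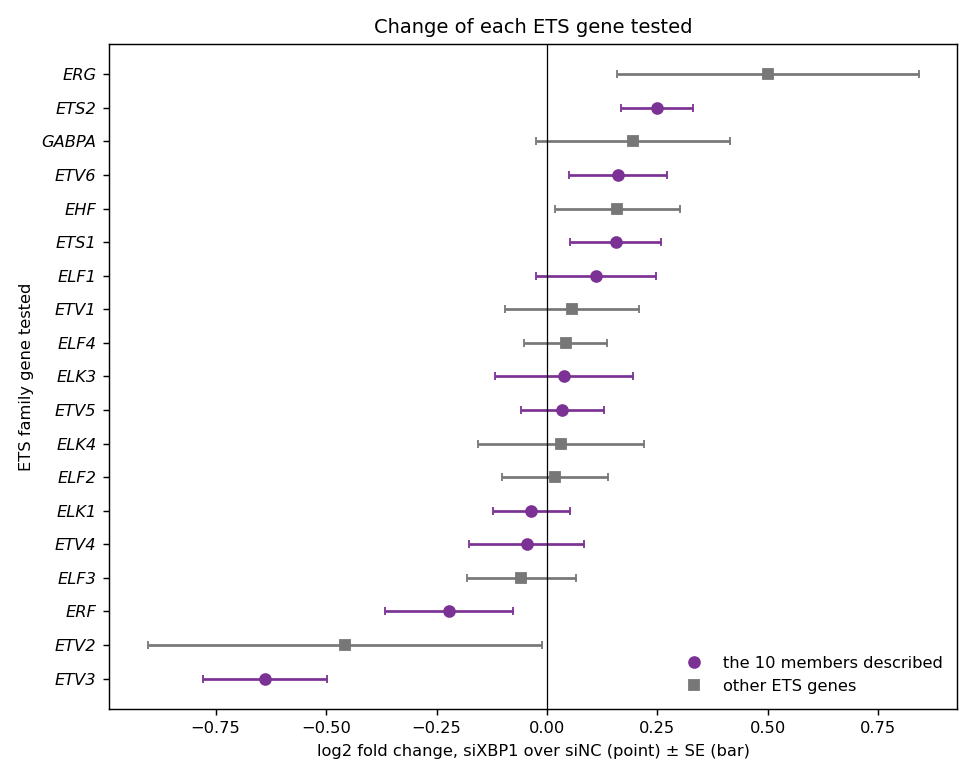
Log2 fold change, siXBP1 over siNC (horizontal axis, point) with its SE (bar), for each ETS gene tested, sorted by value, with the 10 members in purple and the 9 other ETS genes in grey. ETV3 is lowest at -0.64 with an SE of 0.14, and the most positive estimate, for ERG at 0.50, has an SE of 0.34.

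Genes that act above, beside or below ETS factors were counted as lists, and 0 of their 52 tested members passed edgeR's, DESeq2's or limma-voom's test. At an unadjusted p under 0.05 stood 7 of them, all in the list of ERK output genes, 6 with higher and 1 with lower estimates, where 3.61% of all genes tested did. The lists were chosen with earlier results of these data known, so their counts are a description and no test. Those 11 tested genes, which ERK signalling induces through ETS and other factors, had 9 estimates above 0 and a median log2 fold change of 0.23. Groups did not overlap for 4 of the 11 with siXBP1 higher and for 0 with siXBP1 lower, where 5.01% and 3.74% of all genes tested did not. DUSP5, a phosphatase that inactivates ERK, had 62.8 CPM in siXBP1 and 45.4 CPM in siNC on average (0.47, SE 0.20), and its groups overlap. PHLDA1 had a log2 fold change of 0.41 (SE 0.10). The estimate of largest size in the list was negative, for SPRY1, a feedback inhibitor of receptor signalling, with 2.39 CPM in siXBP1 and 3.71 CPM in siNC on average (-0.63, SE 0.27). The related SPRY2 and SPRY4 went the other way, at 0.32 (SE 0.11) and 0.33 (SE 0.12). SPRY2 averaged 35.4 CPM in siXBP1 and 28.4 CPM in siNC, and SPRY4 averaged 39.8 CPM in siXBP1 and 31.7 CPM in siNC. With the first component as a covariate, 4 of these 11 passed as higher and 0 as lower, where 0.711% of all genes tested passed as higher and 0.488% as lower, and the limit on the SEs of that fit holds here too. ETV4 and ETV5, also used as readouts of ERK, had log2 fold changes of -0.05 (SE 0.13) and 0.03 (SE 0.09). Without both end libraries ETV4 came to 0.15, and ERK activity itself was not tested.

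The kinases of the ERK cascade had 7 estimates above and 5 below 0 (median 0.03, n = 12), with BRAF at 0.21 (SE 0.16) as the largest in size. SRF, its cofactors and their early targets, the setting in which ELK1 and ELK3 act, had 7 above and 4 below (median 0.02, n = 11), with FOSB at 0.22 (SE 0.14) and IER2 at 0.20 (SE 0.16). Factors that repress ETS genes or degrade ETS proteins had 7 above and 5 below (median 0.01, n = 12). Among them were COP1, a ubiquitin ligase for ETV4 and ETV5, at -0.17 (SE 0.10), and ATXN1, a partner of the repressor CIC, at 0.13 (SE 0.15). DDX20, the partner of ETV3 named above, had 59.8 CPM in siXBP1 and 59.5 CPM in siNC. Of 7 protease genes with known ETS sites, 2 averaged 1 CPM or more and none averaged 5 CPM.

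**Figure D5:**
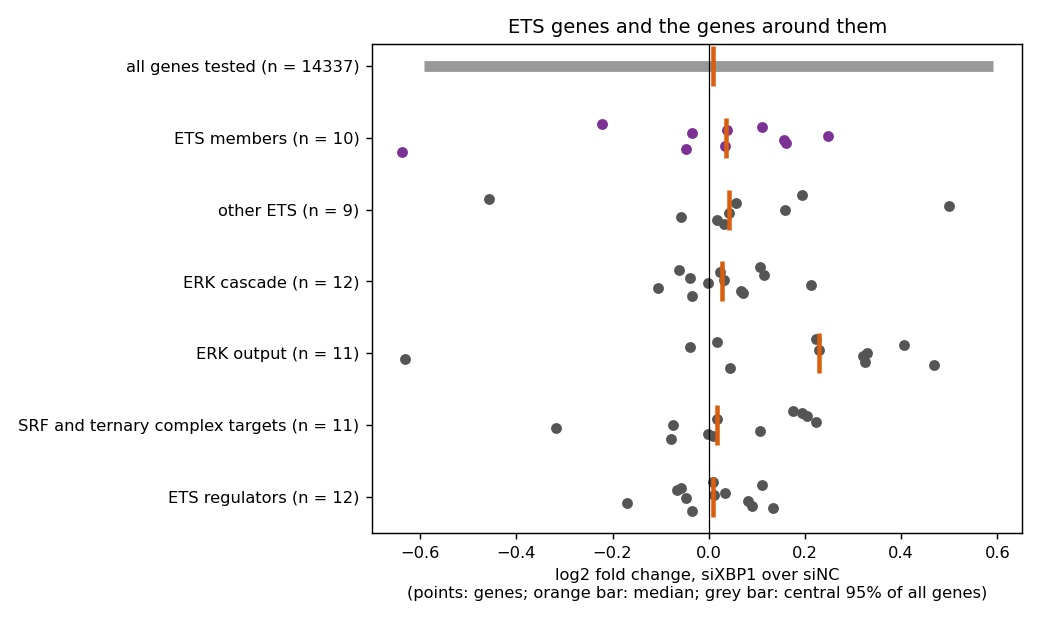
Log2 fold change, siXBP1 over siNC (horizontal axis), of the genes tested in each list (points) with the median (orange bar), and the central 95% of all genes tested (grey bar, -0.59 to 0.59). ETV3 lies below that range, the other 9 ETS members inside it, and the median of the ERK output genes is 0.23. The family was chosen because ETV3 is lower in this comparison, so the place of ETV3 is a description and no test. The lists were chosen with earlier results of these data known.

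By the root mean square difference of centred log2 CPM over the 6 libraries, the genes most like ETV3 among 10744 others with a mean of at least 5 CPM were DNAJB9 (0.148), MATCAP1 (0.152), AJM1 (0.152), FICD (0.152) and CCDC57 (0.152), where the median gene had 0.382. DNAJB9, an ER co-chaperone, had 43.1, 43.9 and 56.6 CPM in siXBP1 libraries and 65.9, 81.9 and 87.1 CPM in siNC libraries. FICD, which modifies the ER chaperone BiP, had 11.6, 13.2 and 12.04 CPM in siXBP1 libraries and 16.1, 19.6 and 20.4 CPM in siNC libraries. MATCAP1, AJM1 and CCDC57, about as near to ETV3 as FICD, averaged 10.8, 5.42 and 14.8 CPM in siXBP1. In siNC they averaged 14.2, 7.05 and 19.5 CPM. In all 5 of these genes, as in ETV3, siNC replicate 1 is the lowest siNC library and still above all siXBP1 libraries, a pattern that picking them for likeness to ETV3 favours. Among the other members ERF was the nearest to ETV3 (0.303, rank 777), and ETS2 the farthest (0.471, rank 9752).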

How the data were processed

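RNA-seq libraries were made with a TruSeq stranded kit, per the labels' protocols. Reads were handled with STAR 2.5.2a, featureCounts 1.5.0 and the hg38 build, per the submitters' processing notes; annotation and strand setting: not given in the sources used here. With whole numbers throughout, the deposited table holds unnormalized read counts of 18555 genes, of which 18526 had a RefSeq name. Even numbers made up 75.8% to 80.5% of counts from 1 to 40, as when both mates of a pair are counted, so halved counts were tried too. Counts were filtered with filterByExpr, scaled with TMM and tested with edgeR 4.0.16 (quasi-likelihood, two-sided, group as the only term, Benjamini-Hochberg over all 14337 genes) in R 4.3.3. DESeq2 1.42.0 and limma-voom (limma 3.58.1) were alternatives, as were other scalings, filters and left-out libraries. The SE is the size of the log2 fold change over the square root of F. CPM are counts over the library total, and principal components used log2 CPM (prior 0.5 counts) of 11528 genes averaging 100 counts or more. Counts were not divided by transcript length, so levels are not compared between genes. Replicates are separate samples per the titles, which do not tell if cultures were separate, so a p-value reflects the spread of these samples alone. Chi-square per degree of freedom between replicates was at least 9.37, above what counting error alone gives. That value cannot tell separate cultures from separate preparations of 1 culture. Floors cover counting error only.

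Named genes were all 10 members, other ETS genes averaging 1 CPM or more, XBP1, up to 2 genes per list (those called or, with none, those averaging 5 CPM or more with the largest change), and the 5 genes most like ETV3. Some genes that the rule names are not reported here. DDX20, SPRY1, SPRY2, SPRY4 and the low ETS genes were added with their values seen. Members, lists and alternatives were chosen with earlier results of these data known. The edgeR, DESeq2 and limma-voom fits with group alone were also run on simulated counts that held no component shared between genes. That simulation does not cover the fit with the covariate or the fit without both end libraries.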

Additional observations from a re-analysis of the deposited data

How the results depend on the processing

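XBP1 was the only gene called with all libraries. The count of called genes was 0 with upper-quartile factors, 15 with DESeq2 (6 higher, 9 lower), 172 with the first component as a covariate and 702 without both end libraries, and from 0 to 1 with 1 library left out. It was 0 when any of siXBP1 replicate 1, siXBP1 replicate 2, siNC replicate 2 and siNC replicate 3 was left out. The cause was not tested. Of the 10 ETS members, 1 was called by DESeq2, 2 with the covariate, 2 when both end libraries were dropped, and 0 in every fit with 1 library left out. Of the genes in the pathway lists, 5 were called with the covariate (DUSP5, EPHA2, IER2, PHLDA1 and SPRY4, all higher) and 9 without both end libraries (7 higher, 2 lower). Other ETS genes gave 0 calls in all alternatives. The log2 fold change of ETV3 lay between -0.77 and -0.56 over 17 alternatives. Without both end libraries, ETV4 came to 0.15, ELK3 to -0.19 and ETS1 to 0.03, shifts larger than the SD within groups. No scaling moved the median of all genes by over 0.1. Same-numbered libraries did not all deviate alike, as their deviations correlated at 0.60, -0.36 and 0.43 and siXBP1 replicate 2 correlated best with siNC replicate 1. The titles do not tell if samples were paired by design, and these correlations cannot decide it. With the replicate block, 1 gene, 0 ETS members, 0 other ETS genes and 0 list genes were called, and ETV3 had -0.63.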
